A study of Mus musculus with 9 samples.

Results

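Mitf, Sox10, Pax3, Tfap2a, Tfap2b, Snai2, Zeb1, Zeb2 and Foxd3 encode transcription factors that set neural crest and melanocyte identity. These 9 genes were chosen by name for that role, and they are 9 of the 49671 genes with counts. RNA-seq libraries were made from cells carrying the receptor KIT and lacking the leukocyte protein CD45, sorted from the dermis of body skin of female, wild-type C57BL/6 mice. Melanoblasts, the precursor cells of newborn skin, came from postnatal day 0.5 pups (3 libraries). Adult quiescent melanocyte stem cells (McSC) came from mice of 8 to 10 weeks (4 libraries), and aged McSC from mice of 24 months (2 libraries), both taken while hair growth was at rest (telogen). Each library held the pooled cells of several animals, so the p-values reflect variation among pools. Newborn and adult animals were C57BL/6J bred in house, whereas the aged animals reached the same facility at 21 months from the NIA aged rodent colony, so that age and colony cannot be told apart.

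MITF is the basic helix-loop-helix factor that drives pigment genes, melanocyte survival and lineage commitment. In the neural crest, SOX10 and PAX3 activate the Mitf gene, TFAP2 factors act beside MITF at melanocyte enhancers, and FOXD3 holds crest cells in an uncommitted state and can restrain Mitf. SNAI2, ZEB1 and ZEB2 are E-box-binding zinc finger factors that repress epithelial genes, and SNAI2 and ZEB2 are needed for melanocyte development in mice.

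Library totals ranged over 23688288 to 33710117 counts for melanoblasts, 19956424 to 21572026 for adult McSC and 12594770 to 16362560 for aged McSC. The mitochondrial ribosomal RNA genes mt-Rnr1 and mt-Rnr2 held 32.6% to 37.6% of melanoblast, 21.9% to 33.6% of adult and 21.5% to 24.6% of aged totals. All 8 melanocyte lineage markers examined had counts in every group, and their summed level in counts per megacount of a library (CPM) was 12740 to 23650 for melanoblasts, 3661 to 9445 for adult McSC and 6581 to 7663 for aged McSC. CPM values were scaled with TMM factors, which correct for differences in composition between libraries. These factors spanned 0.56 to 0.842 for melanoblasts, 1.09 to 1.21 for adult McSC and 1.38 to 1.51 for aged McSC, and the choice of factors moved the direction of several members, as given with each comparison. Markers of other skin cells had counts in every group too. The 11 keratinocyte markers summed to 313 to 688 CPM in melanoblasts, 1551 to 2693 CPM in adult McSC and 1129 to 1350.0 CPM in aged McSC. The 10 fibroblast markers summed to 565 to 2121, 494 to 961 and 132 to 248 CPM in the same order of groups, and the 8 Schwann cell markers to 205 to 297, 531 to 788 and 129 to 203 CPM. Libraries of a group differed unequally. The chi-square per degree of freedom over genes was 39.8 and 44.9 between melanoblast replicate 3 and the other melanoblast libraries, which were at 17.5 from each other. Between adult libraries it ran to 75.1, for replicates 1 and 2, and it was 30.2 between the aged libraries. Endothelial, mast cell and macrophage or dendritic markers each summed to at most 240.8 CPM in a library. The most abundant markers of 6 lists were Dct (melanocyte lineage), Cdh3 (keratinocyte), Col3a1 (fibroblast), Pecam1 (endothelium), Cpa3 (mast cell) and Cd68 (macrophage). No marker was at 0 in all libraries of a group, and the part of these cells in the results on the 9 factors was not tested.

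All 9 genes were measured in every library. Genes were compared per kilobase of exon, counting all annotated exons of a gene, which need not be the length of the transcripts in use. This length was greatest for Zeb2, at 19942 bases. On that scale the order of mean levels in melanoblasts was Sox10, Mitf, Tfap2b, Pax3, Tfap2a, Zeb2, Zeb1, Foxd3 and Snai2. In that group Sox10 stood at 194 ± 43.9 CPM per kb and Snai2 at 11.4 ± 4.74 CPM per kb (SD, n = 3). Libraries of Sox10 and Mitf overlapped there. In adult McSC, Mitf was at 77.5 ± 28.6, Sox10 at 73.7 ± 18.4, Tfap2b at 64.6 ± 16.7 and Pax3 at 63.4 ± 12.5 CPM per kb (SD, n = 4), and libraries of neighbouring genes in this order overlapped. In aged McSC Sox10 was next after Mitf, Tfap2b and Pax3, at 45.3 ± 10.6 CPM per kb, below Mitf at 96.4 ± 22.1 CPM per kb (SD, n = 2). The aged libraries of Mitf and Sox10 did not overlap, whereas those of Sox10 overlapped those of Tfap2b and of Pax3. Olfactory receptor genes, which skin is not known to use, gave a background whose 95th percentile was 0.293 CPM per kb in melanoblasts, 0.624 in adult McSC and 0.788 in aged McSC over 1134 genes. The lowest member, Foxd3 in aged McSC at 4.55 ± 0.943 CPM per kb (SD, n = 2), lay above this percentile. The plot of levels per kilobase shows the order in each group.

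**Figure D1:**
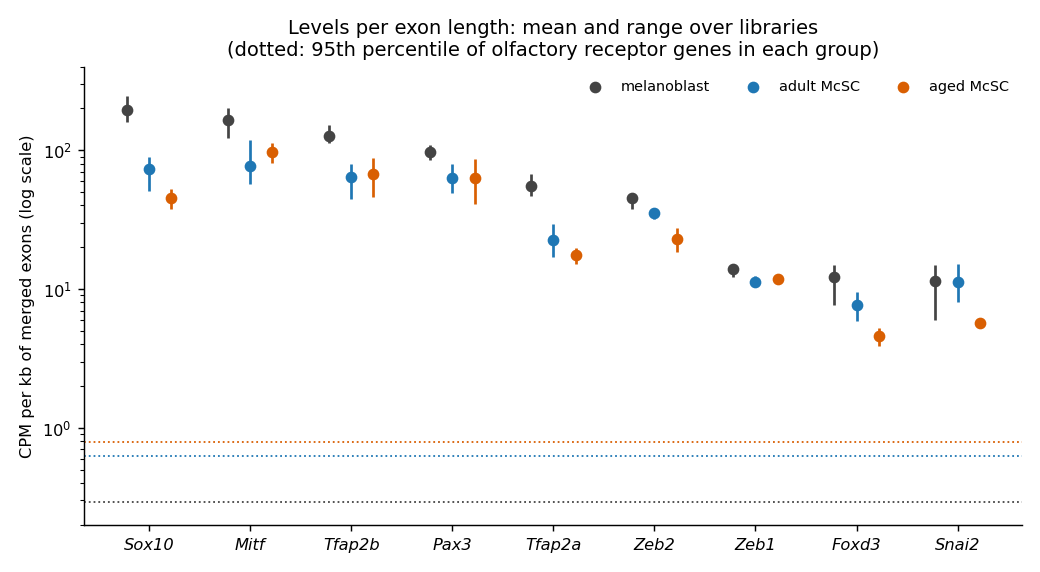
Levels of the 9 factors per kilobase of exon (CPM per kb, log axis) in melanoblast, adult and aged libraries; points are group means, lines the range over libraries, and dotted lines the 95th percentile of olfactory receptor genes in each group. By mean, Sox10 is the highest in melanoblasts and lies under Mitf, Tfap2b and Pax3 in aged McSC, and Foxd3 is the lowest in both McSC groups. Ranges of Sox10 overlap those of Mitf in melanoblasts and of Tfap2b and Pax3 in aged McSC.

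Sox10, the SRY-box factor needed for melanocyte and glial fates, was lower in both McSC groups than in melanoblasts. Sox10 (ENSMUSG00000033006, chr15:79154908-79165240, minus strand) had 551, 744 and 486 CPM in melanoblast, 156, 271, 202 and 270.4 CPM in adult and 161 and 115 CPM in aged libraries. Every McSC library lay below every melanoblast library, and aged replicate 2 was the lowest of all 9. On library totals without TMM factors the aged libraries (158 to 244 CPM) still lay below the melanoblast libraries (309 to 423 CPM), whereas the adult libraries (186 to 326 CPM) overlapped them. By edgeR's quasi-likelihood test with Benjamini-Hochberg adjustment over all genes tested, the log2 fold change was -1.40 (SE 0.24, adjusted p = 8.49e-05) in adult McSC against melanoblasts and -2.10 (SE 0.31, adjusted p = 1.97e-05) in aged McSC against melanoblasts, that is 2.64-fold and 4.29-fold lower. Sox10 fell in all 17 other settings of the analysis in both comparisons. Fewer melanocyte cells in a sorted pool and less Sox10 RNA per cell cannot be told apart in such bulk libraries.

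Mitf, the gene of the lineage's central factor, was lower in adult McSC but did not pass the test in aged McSC against melanoblasts. Mitf (ENSMUSG00000035158, chr6:97807052-98021349, plus strand) had 1061, 1243 and 764 CPM in melanoblast, 362, 734, 356 and 468 CPM in adult and 500.3 and 694 CPM in aged libraries. On this scale all McSC libraries lay below the melanoblast libraries, although adult replicate 2 and aged replicate 2 came near to melanoblast replicate 3. Without TMM factors, Mitf was at 756 to 953 CPM in aged and 406 to 796 CPM in adult libraries and 594 to 708 CPM in melanoblast libraries, so that the aged libraries lay above all melanoblast libraries and the adult ones overlapped them. The log2 fold change was -1.09 (SE 0.26, adjusted p = 0.00235) in adult McSC and -0.78 (SE 0.32, adjusted p = 0.0567) in aged McSC, each against melanoblasts, by edgeR. The aged difference passed the threshold with DESeq2 (-0.87, adjusted p = 0.0441), RLE factors (-0.88, adjusted p = 0.0436), limma voom (-0.85, adjusted p = 0.00229) and a replicate block (-0.96, adjusted p = 0.0114). It also passed without melanoblast replicate 3 (-0.95, adjusted p = 0.0136) and without adult replicate 2, which enters only the estimate of spread (-0.78, adjusted p = 0.0291).

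The Mitf gene is read from several start sites, and the most downstream of them makes the M form used by melanocytes. These counts are per gene and do not tell the forms apart. The 250 bases before the most downstream of the 3 Mitf starts in the RefSeq promoter table (GRCm38.p6, chr6:97991533-97991782, plus strand) are shown because Lef1, Creb1 and Sox10, whose levels are given here, are known to act at this promoter. The capitals mark CTTTGAT, the reverse complement of the LEF1 motif ATCAAAG, and the palindromic CREB motif TGACGTCA.
Mitf, before the most downstream start: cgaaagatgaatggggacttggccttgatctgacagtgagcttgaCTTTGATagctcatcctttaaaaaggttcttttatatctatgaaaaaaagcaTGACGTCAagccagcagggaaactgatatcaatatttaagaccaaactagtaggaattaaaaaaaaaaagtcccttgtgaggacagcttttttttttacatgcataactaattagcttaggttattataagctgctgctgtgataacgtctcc
Both motifs were searched on both strands of windows of 300 bases and chosen after the windows were seen. ATCAAAG occurred in 3.73% and TGACGTCA in 1.79% of all 32851 promoters of the table. Of the 9 factors, 5 matched the table, with 11 promoters: Zeb2 with 4, Mitf with 3, Tfap2a with 2, and Tfap2b and Foxd3 with 1 each.

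Pax3, the paired-box factor that acts with SOX10 on the Mitf gene, had the smallest fold changes against melanoblasts among the 4 factors of highest level. Pax3 (ENSMUSG00000004872, chr1:78101267-78197134, minus strand) had 609, 676 and 523 CPM in melanoblast, 306, 489.5, 364 and 409 CPM in adult and 253 and 533 CPM in aged libraries. The adult libraries lay below the melanoblast libraries on the TMM scale but overlapped them on library totals. The 2 aged libraries were far apart and replicate 2 lay above melanoblast replicate 3. The log2 fold change was -0.62 (SE 0.25, adjusted p = 0.0568) in adult and -0.62 (SE 0.30, adjusted p = 0.105) in aged McSC against melanoblasts by edgeR, so neither passed the threshold. The adult difference passed it without adult replicate 2 (-0.74, adjusted p = 0.0297), without melanoblast replicate 3 (-0.71, adjusted p = 0.0260) or without either aged library (adjusted p = 0.034 and 0.0347). The aged difference passed it without aged replicate 2 (-1.25, adjusted p = 0.0141). Both passed with limma voom (adult -0.67, adjusted p = 0.00789; aged -0.73, adjusted p = 0.0107) and with a replicate block (adult -0.67, adjusted p = 0.0463; aged -0.77, adjusted p = 0.0436).

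Tfap2a and Tfap2b encode the AP-2 alpha and beta factors, which bind beside MITF at genes of melanocyte differentiation. Tfap2a (ENSMUSG00000021359, chr13:40715302-40738376, minus strand) had 328, 252 and 228 CPM in melanoblast, 83.0, 145, 108 and 106 CPM in adult and 74.4 and 96.6 CPM in aged libraries. All McSC libraries were below all melanoblast libraries, which on library totals held for the aged libraries alone, and the log2 fold change was -1.28 (SE 0.23, adjusted p = 1.21e-04) in adult and -1.66 (SE 0.29, adjusted p = 1.15e-04) in aged McSC against melanoblasts by edgeR. Like Sox10, Tfap2a fell in all 17 other settings in both comparisons. It shares 380 exon bases (7.75%) with the antisense gene Gm26688, and how the counting treated strand is not given in the sources used here.

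Tfap2b (ENSMUSG00000025927, chr1:19208914-19238576, plus strand) had 957, 735 and 720.0 CPM in melanoblast, 284, 489.5, 359 and 504 CPM in adult and 290.3 and 560.1 CPM in aged libraries. Again no McSC library reached the melanoblast range on the TMM scale, and the 2 aged libraries lay further apart than any adult ones. On library totals both McSC groups overlapped the melanoblast libraries. The log2 fold change was -0.97 (SE 0.26, adjusted p = 0.00481) in adult and -0.92 (SE 0.32, adjusted p = 0.0241) in aged McSC against melanoblasts by edgeR. Without melanoblast replicate 1, the highest, both calls were lost (adult -0.74, adjusted p = 0.0544; aged -0.68, adjusted p = 0.111), and without aged replicate 1 the aged call was lost (-0.52, adjusted p = 0.300).

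The E-box repressors had smaller fold changes than Sox10 and Tfap2a in both comparisons with melanoblasts. Zeb1 (ENSMUSG00000024238) had 150.4, 151 and 125 CPM in melanoblast, 110.0, 128, 109 and 110.2 CPM in adult and 115 and 127 CPM in aged libraries. The values of melanoblast replicate 3, adult replicate 2 and aged replicate 2 were nearly equal, so the groups overlapped, and Zeb1 did not pass the test: -0.31 (SE 0.20, adjusted p = 0.237) in adult and -0.23 (SE 0.25, adjusted p = 0.443) in aged McSC against melanoblasts by edgeR. A missed threshold does not show equal levels. On library totals, unlike on this TMM scale, every McSC library lay above every melanoblast library. Zeb1 shares 198 exon bases (1.93%) with Gm10125 on the opposite strand.

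Zeb2 (ENSMUSG00000026872, chr2:44983632-45117395, minus strand) had 960.4, 979.9 and 757 CPM in melanoblast, 729.7, 748, 686 and 641 CPM in adult and 369 and 547 CPM in aged libraries. On the TMM scale the groups did not overlap, with the aged libraries lowest and the adult libraries between, adult replicate 2 lying close to melanoblast replicate 3. On library totals every adult library (772 to 871 CPM) lay above every melanoblast library (537.5 to 637 CPM), and the aged libraries overlapped the melanoblast range. The log2 fold change was -0.36 (SE 0.22, adjusted p = 0.212) in adult McSC, which did not pass, and -0.97 (SE 0.27, adjusted p = 0.00750) in aged McSC, which did, each against melanoblasts by edgeR. Without aged replicate 1 the aged call was lost (-0.72, adjusted p = 0.119). Zeb2 shares 653 exon bases (3.27%) with the antisense gene Zeb2os.

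Snai2 (ENSMUSG00000022676, chr16:14705852-14709385, plus strand), the gene of SLUG, had 30.1, 26.9 and 12.2 CPM in melanoblast, 16.2, 23.7, 30.8 and 20.0 CPM in adult and 11.0 and 12.1 CPM in aged libraries. Melanoblast replicate 3 was less than any adult library, and on the TMM scale both aged libraries were lower than it by a small margin. On library totals the aged libraries overlapped the melanoblast libraries. The log2 fold change was -0.02 (SE 0.28, adjusted p = 0.957) in adult and -0.99 (SE 0.35, adjusted p = 0.0271) in aged McSC against melanoblasts by edgeR. The aged call was lost without either aged library (replicate 1: -0.93, adjusted p = 0.143; replicate 2: -1.06, adjusted p = 0.0919), without melanoblast replicate 1 (-0.67, adjusted p = 0.166) and without melanoblast replicate 2 (-0.86, adjusted p = 0.0721).

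Foxd3, the forkhead factor of uncommitted neural crest, had the lowest mean per kilobase of the members in both McSC groups. Foxd3 (ENSMUSG00000067261, chr4:99656299-99658622, plus strand), a gene of 1 exon, had 32.3, 34.7 and 17.97 CPM in melanoblast, 13.7, 22.3, 16.01 and 19.5 CPM in adult and 12.1 and 9.03 CPM in aged libraries. On the TMM scale melanoblast replicate 3 fell within the adult range, and both aged libraries were below all others. On library totals the aged libraries overlapped the melanoblast libraries. The log2 fold change was -0.66 (SE 0.26, adjusted p = 0.0495) in adult and -1.42 (SE 0.33, adjusted p = 0.00161) in aged McSC against melanoblasts by edgeR. The adult call rested on the setting: it was kept in 3 of 17 others, and each of adult replicates 1, 3 and 4, melanoblast replicates 1 and 2 and both aged libraries ended it when left out, with log2 fold changes of -0.71 to -0.47 and adjusted p of 0.0534 to 0.24. The plot of levels by library shows all 9 factors.

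**Figure D2:**
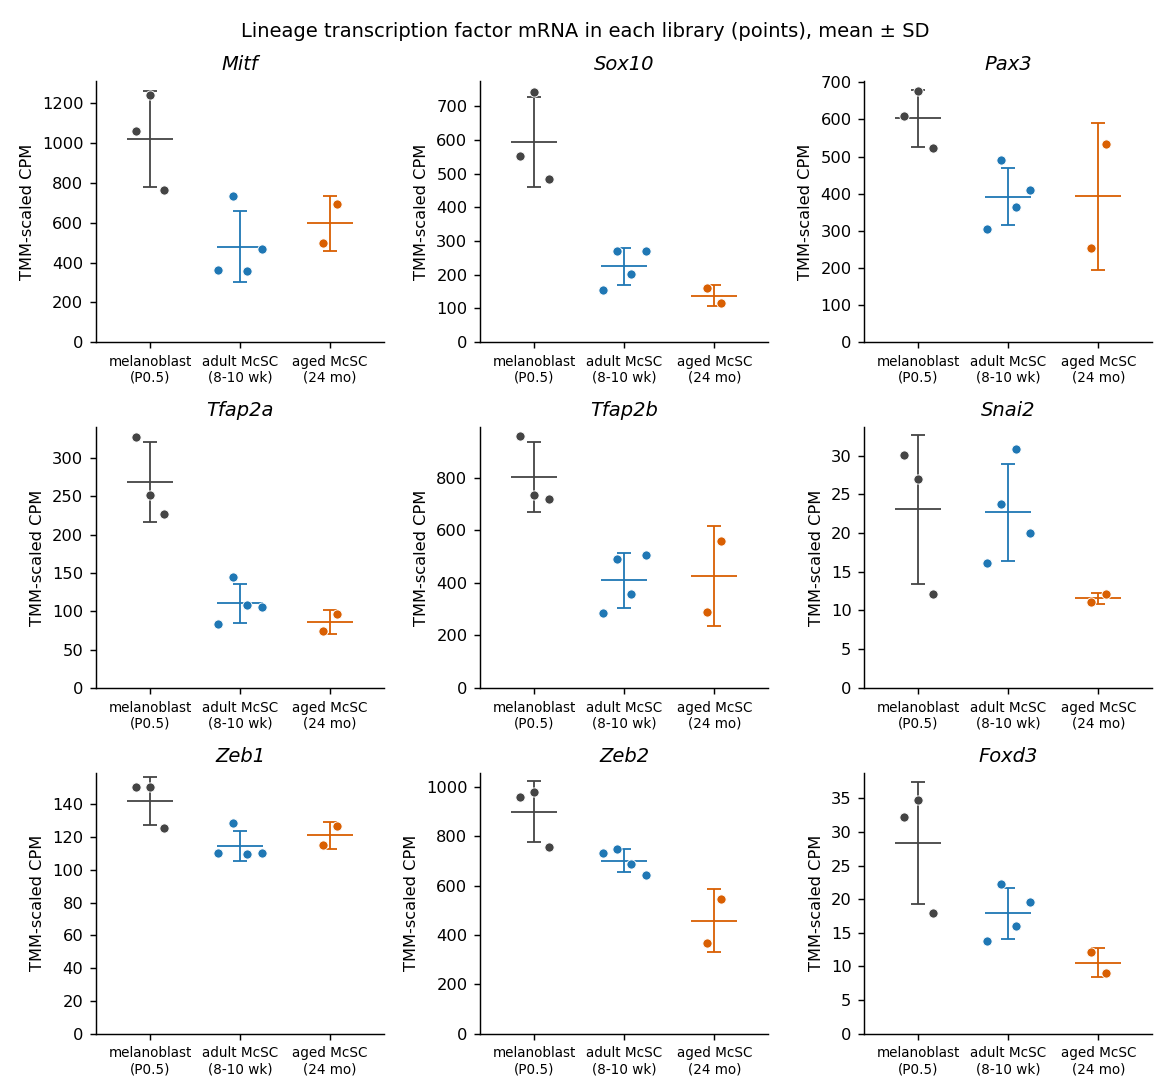
Level of each factor (CPM, axis from 0) in the 3 melanoblast, 4 adult and 2 aged libraries; points are libraries and bars the group mean ± SD. On this TMM scale Sox10 and Tfap2a show every McSC library below every melanoblast library, and Zeb1 overlaps between groups.

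Adult McSC against melanoblasts asks how the resting stem cell differs from its precursor. Mitf, Sox10, Tfap2a, Tfap2b and Foxd3 fell and no member rose; Pax3, Snai2, Zeb1 and Zeb2 did not pass the threshold. Without melanoblast replicate 1, 3 members fell. Of all 31961 genes tested, 33.4% were called, 18.3% as lower and 15.1% as higher. The median log2 fold change was -0.66 over the members and 0.39 over all genes. The groups did not overlap for 6 members (Mitf, Sox10, Pax3, Tfap2a, Tfap2b and Zeb2), beside 39.3% of all genes. Among 4391 genes with a log2 mean CPM above 5, a range that holds abundant genes as several members are, the median was -0.83 and 64.9% fell.

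The directions depended on scaling. With TMM factors computed from abundant genes alone, the median of all genes moved to 1.15 and the calls to 10416 higher and 1985 lower, in place of 4836 higher and 5840 lower. Sox10 (-0.63, adjusted p = 0.00976) and Tfap2a (-0.52, adjusted p = 0.0108) still fell, Mitf at -0.33 and Tfap2b at -0.22 did not pass, and Snai2 at 0.81, Zeb1 at 0.47 and Zeb2 at 0.44 rose. On library totals without TMM factors, no member had all adult libraries below the melanoblast libraries, and Snai2, Zeb1 and Zeb2 had them all above.

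Aged McSC against melanoblasts used the same 3 melanoblast libraries as the adult comparison, so the comparisons are not independent. Sox10, Tfap2a, Tfap2b, Snai2, Zeb2 and Foxd3 fell, no member rose, and Mitf, Pax3 and Zeb1 did not pass the threshold. Without aged replicate 1, 3 members fell. Beside these 6 of 9, 40.7% of all genes were called, 20.3% as lower and 20.4% as higher. The median was -0.97 over the members and 0.70 over all genes, but -1.15 over the 4391 abundant genes, of which 72.5% fell. The groups did not overlap for 7 members, all but Pax3 and Zeb1, beside 66.2% of all genes. With factors from abundant genes the median of all genes was 1.78 and the split was 15341 higher and 1770 lower, in place of 6514 higher and 6491 lower. Sox10 at -0.95 (adjusted p = 0.00276) and Tfap2a at -0.52 (adjusted p = 0.0215) fell there too. Zeb1 at 0.90 rose, Mitf at 0.38 and Pax3 at 0.51 turned positive without passing, and Foxd3, Tfap2b, Snai2 and Zeb2 did not pass, the last 3 with positive values. On library totals, Sox10 and Tfap2a had both aged libraries below the melanoblast libraries, and Mitf and Zeb1 had both above.

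Between aged and adult McSC no member passed the threshold by edgeR, although 4 had an unadjusted p under 0.05: Sox10 at -0.70 (SE 0.28, adjusted p = 0.421), Snai2 at -0.97 (SE 0.34, adjusted p = 0.319), Zeb2 at -0.61 (SE 0.26, adjusted p = 0.441) and Foxd3 at -0.75 (SE 0.31, adjusted p = 0.422), all lower in aged McSC. Of all 31961 genes tested, 3275 had an unadjusted p under 0.05. After adjustment 0.303% were called, 0.25% as lower and 0.0532% as higher. This split of 17 higher and 80 lower became 32 higher and 25 lower with factors from abundant genes. limma voom with quality weights called Sox10, Snai2 and Zeb2 lower, beside 670 lower and 850 higher of all 31961 genes. DESeq2 called no member. The aged and adult libraries did not overlap for Snai2, Zeb2 and Foxd3, beside 27.7% of all genes. On library totals Snai2 and Zeb2 were lower in both aged libraries and Zeb1 higher. Mitf was at 0.32 (SE 0.30, adjusted p = 0.728), Tfap2a at -0.37 (SE 0.26, adjusted p = 0.636), and Pax3, Tfap2b and Zeb1 lay between 0.00 and 0.08. With 2 aged libraries from another colony, a missed threshold does not show that the levels were alike. The plot of fold changes sets the 3 comparisons side by side.

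**Figure D3:**
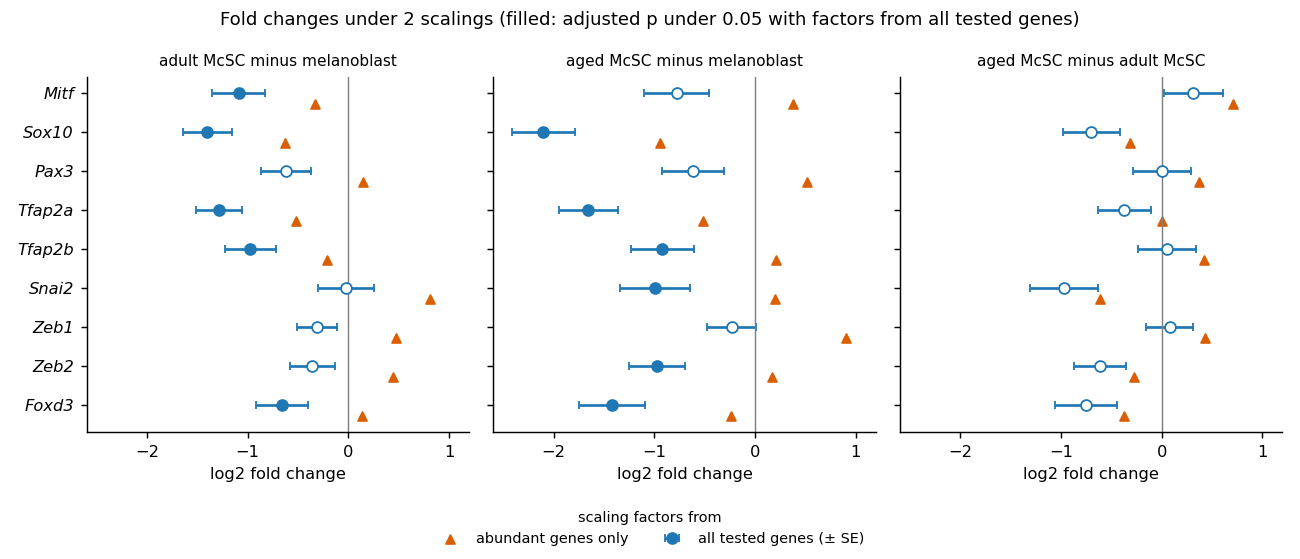
Log2 fold changes of the 9 factors in the 3 comparisons, with 1 SE as error bars (circles, filled where edgeR called the gene) and with scaling factors from abundant genes only (triangles). Sox10 lies lowest in both comparisons with melanoblasts, at -1.40 and -2.10, and every triangle lies to the right of its circle.

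The ratio of one factor to another within a library does not depend on scaling factors. Relative to Sox10, Snai2, Zeb1, Zeb2, Pax3, Foxd3 and Tfap2b were higher in McSC than in melanoblasts, and Tfap2a was lower relative to Tfap2b. The log2 ratio of Zeb1 to Sox10 was -1.87, -2.30 and -1.95 in melanoblast, -0.50, -1.07, -0.89 and -1.29 in adult and -0.49 and 0.14 in aged libraries. The log2 ratio of Pax3 to Sox10 was 0.14, -0.14 and 0.11, 0.97, 0.85, 0.85 and 0.60, and 0.65 and 2.21 in the same groups. In both, every McSC library lay above every melanoblast library, and aged replicate 2 was highest.

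Of 10 ratios compared, 7 separated the 6 McSC libraries of both ages from the 3 melanoblast libraries, each with p = 0.0238, the smallest a 2-sided exact permutation test allows here, and an adjusted p of 0.034 over the 10. The difference in mean log2 ratio to Sox10 (McSC minus melanoblast) was 1.37 for Snai2, 1.36 for Zeb1, 1.08 for Zeb2, 0.98 for Pax3, 0.76 for Foxd3 and 0.65 for Tfap2b, and that of Tfap2a to Tfap2b was -0.42. Mitf to Sox10 differed by 0.63 (exact p = 0.0952), Tfap2a to Sox10 by 0.23 (exact p = 0.381) and Zeb2 to Zeb1 by -0.28 (exact p = 0.238). This pooled McSC group mixes ages and colonies, and only its larger number of libraries allows a p under 0.05. The same 7 ratios did not overlap between the 4 adult and 3 melanoblast libraries, where the exact test cannot go below 0.0571. Each had that p there and an adjusted p of 0.0816 by the same exact test, so none passed. All the ratios to Sox10 share that gene, the factor with the lowest log2 fold change in both comparisons with melanoblasts. They are therefore not independent results. Among the 4391 genes with a log2 mean CPM above 5, the lower quartile of log2 fold changes was -1.22 in adult and -1.62 in aged McSC against melanoblasts. Both quartiles lie above Sox10, at -1.40 and -2.10, so a rise relative to Sox10 is not particular to these factors. The share of other gene pairs that separate these groups was not computed.

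Foxd3 to Sox10 was -4.09, -4.42 and -4.75 in melanoblast libraries and nearly constant among McSC, at -3.50, -3.60, -3.66 and -3.79 in adult and -3.73 and -3.67 in aged libraries. Mitf to Sox10 was 1.63 and 2.59 in aged libraries and 1.215, 1.44, 0.82 and 0.79 in adult libraries, which did not overlap. That difference of 1.04 had an exact p of 0.133, the smallest that 2 against 4 libraries allow. Zeb1 to Sox10 (0.76) and Zeb2 to Zeb1 (-0.72) did not overlap between aged and adult McSC either.

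**Figure D4:**
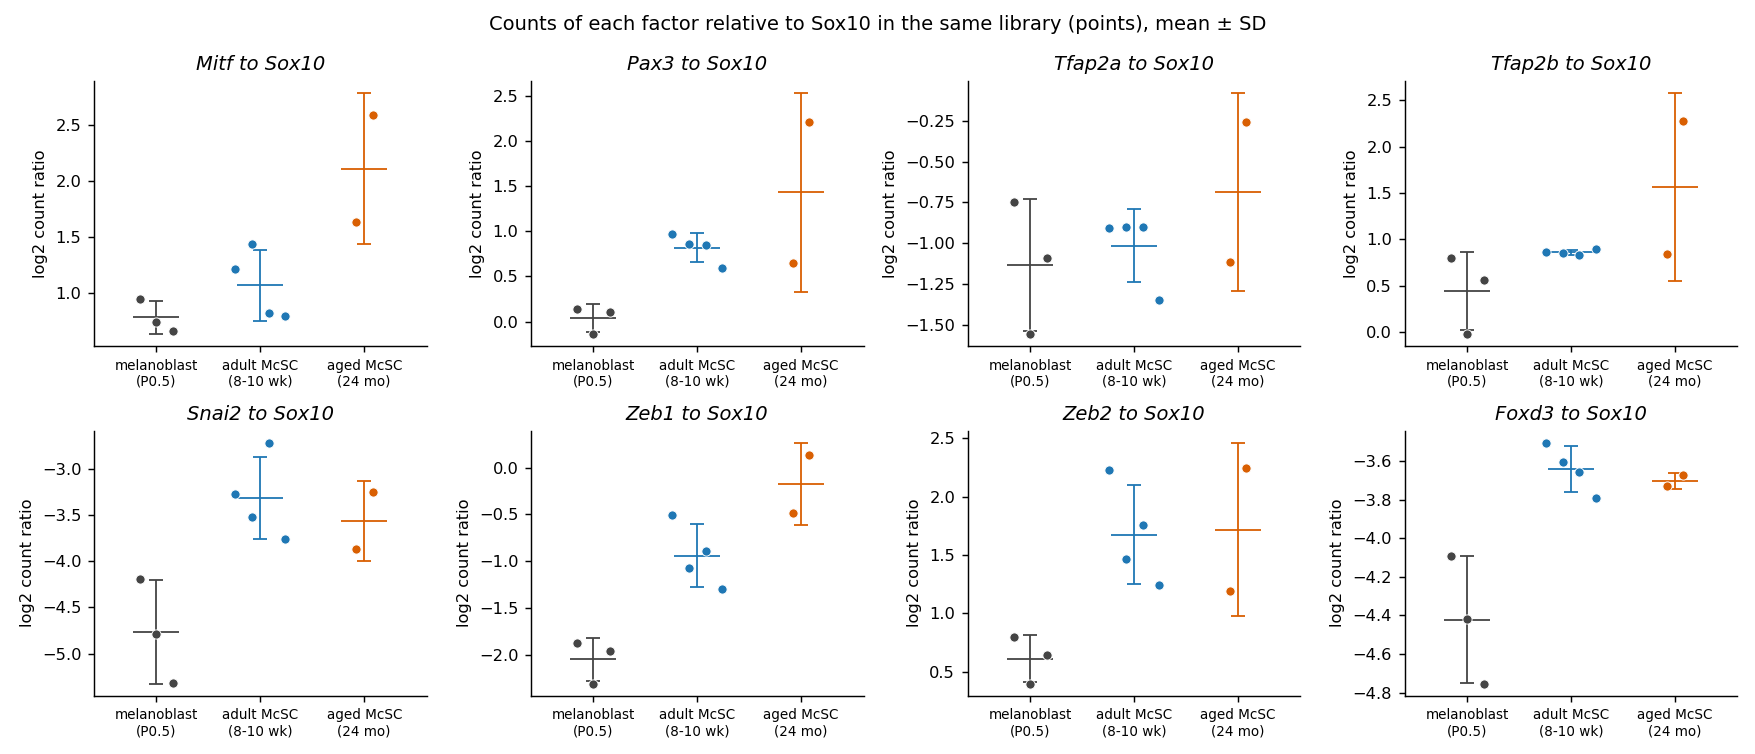
Log2 ratio of each of the other 8 factors to Sox10 within each melanoblast, adult and aged library; points are libraries and bars the group mean ± SD. For 6 of the 8, all 6 McSC libraries lie above the 3 melanoblast libraries; Mitf and Tfap2a overlap.

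Most genes known as targets of MITF fell. Of 18 such genes, 15 fell and none rose in adult McSC against melanoblasts, and 15 fell and none rose in aged McSC against melanoblasts, by edgeR. Their median log2 fold change was -2.13 in both comparisons, beside 0.39 and 0.70 over all genes, and the list was chosen with earlier results on pigment genes known. Of all genes, 18.3% in the adult and 20.3% in the aged comparison were called lower. Among genes with a log2 mean CPM above 5, as most of these targets have, the shares were 64.9% and 72.5% and the medians -0.83 and -1.15. All the melanocyte lineage markers except Kit stand in this list too. Fewer melanocyte cells in a sorted pool and less RNA of these genes per cell cannot be told apart. Tyr, whose enzyme carries out the opening step of melanin synthesis, averaged 226 CPM in adult McSC and 1988 CPM in melanoblasts (log2 fold change -3.13, SE 0.32, adjusted p = 8.40e-08). Oca2, a melanosomal anion channel, was at -3.94 (SE 0.26, adjusted p = 4.20e-11) and Slc24a5, a melanosomal exchanger, at -3.64 (SE 0.28, adjusted p = 5.61e-10). Gpr143, a melanosomal receptor, averaged 6.71 CPM in adult McSC and 31.6 CPM in melanoblasts (log2 fold change -2.24, SE 0.26, adjusted p = 5.06e-07). Met, the receptor of hepatocyte growth factor, was at -2.22 (SE 0.32, adjusted p = 1.33e-05) in aged McSC against melanoblasts. Tyrp1, Tbx2 and Bcl2 did not pass in either comparison and are named after their values were seen. None of the 18 passed between aged and adult McSC (edgeR; none had an unadjusted p under 0.05 and their median was -0.07), where Dct averaged 4349 CPM in aged and 3185 CPM in adult McSC, and Gpnmb, a melanosomal glycoprotein, 844 CPM in aged and 1219 CPM in adult McSC. With factors from abundant genes, 15 fell and 1 rose in adult McSC, and 13 fell and 2 rose in aged McSC, against melanoblasts.

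MITF binds the E-box letters CATGTG and CACGTG. The stretches below lie before the starts of some of the targets whose promoters hold them and of Foxd3. Of the 5 members found in the promoter table, Foxd3 is the only one with such a motif. The E-box on the strand given is in capitals (RefSeq, GRCm38.p6).
Tyr, chr7:87493513-87493558, minus strand: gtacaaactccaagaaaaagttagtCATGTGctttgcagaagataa
Tyrp1, chr4:80834142-80834187, plus strand: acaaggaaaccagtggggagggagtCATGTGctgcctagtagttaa
Dct, chr14:118052376-118052421, minus strand: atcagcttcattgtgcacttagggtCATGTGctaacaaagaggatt
Trpm1, chr7:64153669-64153714, plus strand: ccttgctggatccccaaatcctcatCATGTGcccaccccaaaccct
Mc1r, chr8:123407006-123407051, plus strand: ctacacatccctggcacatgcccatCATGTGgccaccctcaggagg
Met, chr6:17463806-17463851, plus strand: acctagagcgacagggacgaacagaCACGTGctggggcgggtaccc
Foxd3, chr4:99656057-99656102, plus strand: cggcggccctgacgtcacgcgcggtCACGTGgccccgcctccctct
On either strand of the window of 300 bases, CATGTG was in 8 of 15 promoters of the 13 targets found in the table (53.3%), in 0 of the 11 promoters of members, and in 14.2% of all 32851 promoters. The palindrome CACGTG was in 20% of target promoters, 9.09% of member promoters and 7.15% of all. Dct and Mc1r hold CATGTG a further time on the other strand, that of Mc1r within the stretch shown, in lower case as cacatg. Oca2, Slc24a5, Rab27a and a further promoter of Trpm1 hold a motif in stretches not shown. Of the genes shown, Tyr, Dct, Trpm1, Mc1r and Met fell in both McSC groups and Tyrp1 did not pass, though the letters GTCATGTGCT around its motif are the same as in Tyr and Dct. CACCTG, the letters that SNAI2 and ZEB factors bind, was in 9.09% of member promoters and 20.2% of all, ACAAAG, a SOX motif, in 9.09% and 18.7%, and GCCNNNGGC, a TFAP2 motif, in 27.3% and 16.6%. Member promoters here are those of Mitf, Tfap2a, Tfap2b, Zeb2 and Foxd3 only. Overlapping windows of Zeb2 count the same GCCNNNGGC site more than once.

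Genes known to act on the Mitf gene moved in both directions. Of 10 such regulators, 5 fell and 2 rose in adult McSC and likewise 5 and 2 in aged McSC, against melanoblasts. Their medians were -0.89 and -0.37. Among all genes, 33.4% in the adult and 40.7% in the aged comparison were called in either direction. Ctnnb1, the gene of beta-catenin, averaged 353 CPM in adult McSC and 1019 CPM in melanoblasts (log2 fold change -1.53, SE 0.29, adjusted p = 2.18e-04), and its partner Lef1 averaged 9.55 and 27.3 CPM (log2 fold change -1.51, SE 0.23, adjusted p = 2.37e-05). Sox5, which can counter SOX10 at melanocyte promoters, was at -1.28 (SE 0.22, adjusted p = 9.41e-05), and Atf2, a factor activated by stress kinases, at -0.96 (SE 0.22, adjusted p = 0.00161). In aged McSC against melanoblasts the log2 fold change was -1.83 for Ctnnb1, -1.56 for Sox5, -1.25 for Atf2 and -1.23 for Lef1, all past the threshold. With factors from abundant genes, Atf2 did not pass in either comparison, and Sox5 and Lef1 did not pass in the aged one. The fifth gene to fall in both comparisons was Creb1, which averaged 199 CPM in melanoblasts, 113 CPM in adult and 98.5 CPM in aged McSC, and Gli2 and Onecut2 rose in both. None of the 10 passed between aged and adult McSC by edgeR, 1 had an unadjusted p under 0.05, and the most abundant, Ctnnb1 and Atf4, were at -0.30 and -0.16.

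Close relatives of the members were called about as often as genes in general. Of 14 relatives, 13 passed the filter on low counts; 4 rose and none fell in adult McSC, and 5 rose and 1 fell in aged McSC, against melanoblasts, beside 33.4% and 40.7% of all genes. The medians were 1.18 and 1.56. In adult McSC 2 relatives changed without adult replicate 1, adult replicate 3 or melanoblast replicate 2, 7 did without melanoblast replicate 3, and 8 did with factors from abundant genes; Sox9 and Tfap2c passed in all 17 other settings. Sox9, the SOX relative of hair follicle stem cells and cartilage, averaged 48.9 CPM in adult McSC and 4.87 CPM in melanoblasts (log2 fold change 3.33, SE 0.33, adjusted p = 3.33e-08), and 36.7 CPM in aged McSC (log2 fold change 2.92, SE 0.35, adjusted p = 1.29e-06). Tfap2c, an AP-2 gene of epidermis, averaged 6.71 CPM in adult McSC and 2.74 CPM in melanoblasts (log2 fold change 1.29, SE 0.33, adjusted p = 0.00435). Keratinocyte markers were higher in the same libraries, 10 of 11 past the threshold in both comparisons, and their part in the rise of Sox9 and Tfap2c was not tested. Tfe3, of the MITF family, fell in aged McSC (log2 fold change -0.94, SE 0.27, adjusted p = 0.00823), a call that the factors from abundant genes ended. The Tfap2d and Sox8 calls in adult McSC stood at low levels, 1.37 CPM for Tfap2d and 3.24 CPM for Sox8. None of the 13 passed between aged and adult McSC by edgeR, and 1 had an unadjusted p under 0.05.

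SOX10 also drives genes of Schwann cells, the glia of nerves. Of 8 such targets, 4 rose and 2 fell in adult McSC, and 2 rose and 3 fell in aged McSC, against melanoblasts, and 3 fell in aged against adult McSC. Over all genes the shares called in these comparisons were 33.4%, 40.7% and 0.303%. The 5 calls in aged McSC against melanoblasts were 3 without aged replicate 1 or melanoblast replicate 2. Erbb3, the neuregulin receptor that melanoblasts also use, averaged 264 CPM in adult McSC and 824 CPM in melanoblasts (log2 fold change -1.64, SE 0.25, adjusted p = 1.56e-05). Egr2, a factor of myelinating glia, rose in adult (log2 fold change 2.84, SE 0.29, adjusted p = 4.62e-08) and aged McSC (log2 fold change 3.41, SE 0.32, adjusted p = 2.53e-08), as did S100b, a calcium-binding protein of glia (log2 fold change 2.39, SE 0.26, adjusted p = 2.12e-07 in adult and 3.17, SE 0.29, adjusted p = 2.76e-08 in aged McSC). Gjb1, a gap junction protein of myelinating glia, was at -1.75 (SE 0.62, adjusted p = 0.0277) in aged McSC against melanoblasts, at low levels of 1.34 CPM in aged McSC and 4.55 CPM in melanoblasts. The myelin genes Mbp (log2 fold change -2.62, SE 0.35, adjusted p = 2.25e-04) and Pmp22 (log2 fold change -1.27, SE 0.28, adjusted p = 0.0454) were lower in aged than in adult McSC, where the Schwann cell markers summed to 129 to 203 and 531 to 788 CPM. Some genes, Mbp among them, stand in both lists, and the part of Schwann cells in these values was not tested. Leaving out aged replicate 2 ended all 3 calls between aged and adult McSC, and leaving out any of adult replicates 1 and 3, aged replicate 1 and melanoblast replicate 2 left 1.

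Genes of the epithelial state, which SNAI2 and ZEB factors are known to repress, rose for 6 of 13 and fell for 1 in each comparison with melanoblasts. Beside these, 33.4% of all genes in the adult and 40.7% in the aged comparison were called. None of the 13 passed between aged and adult McSC (edgeR, none with an unadjusted p under 0.05). The gene that fell was Cdh1, E-cadherin, which averaged 354 CPM in adult McSC and 1885 CPM in melanoblasts (log2 fold change -2.42, SE 0.25, adjusted p = 5.81e-08) and was at -2.55 (SE 0.32, adjusted p = 2.46e-06) in aged McSC. Epcam, an epithelial adhesion molecule, averaged 23.9 CPM in adult McSC and 3.62 CPM in melanoblasts (log2 fold change 2.72, SE 0.29, adjusted p = 1.11e-07), and Esrp1, an epithelial splicing factor, was at 1.96 (SE 0.30, adjusted p = 2.67e-05). Ocln, a tight junction protein, was at 2.15 (SE 0.41, adjusted p = 2.73e-04) in adult McSC, and Esrp2, the paralog of Esrp1, at 1.73 (SE 0.37, adjusted p = 8.15e-04) in aged McSC, each against melanoblasts. Cdh3, P-cadherin, which is also the most abundant keratinocyte marker, averaged 367 CPM in aged and 498 CPM in adult McSC. With factors from abundant genes 10 of the 13 rose and Cdh1 still fell in both comparisons. These rises ran beside those of the keratinocyte markers, and the part of keratinocytes in them was not tested. The plot of lists shows each gene.

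**Figure D5:**
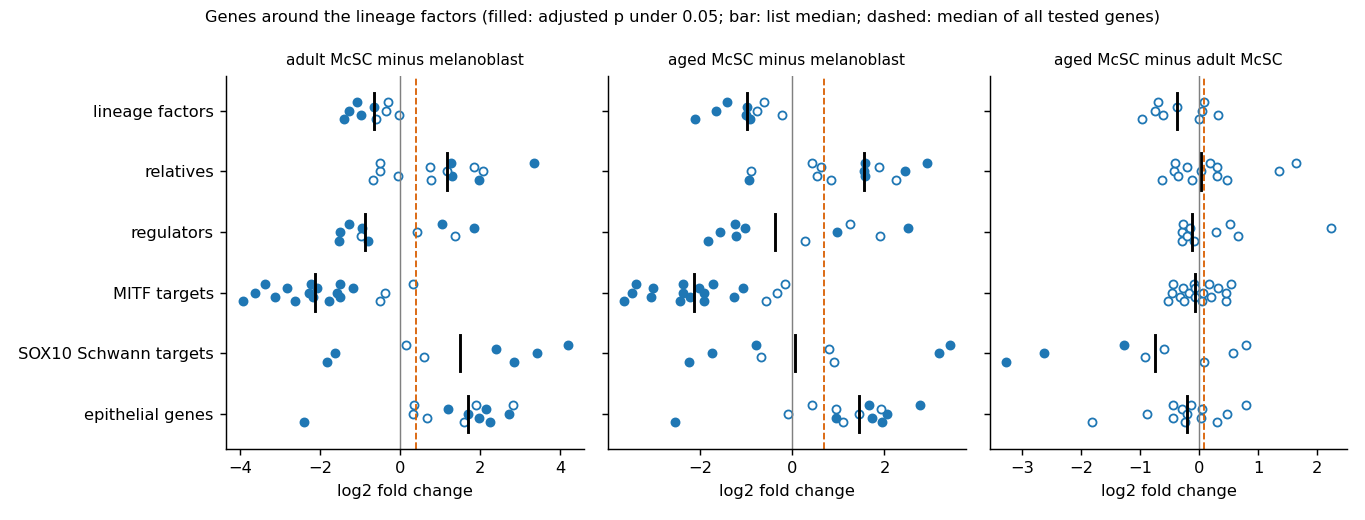
Log2 fold changes of the genes of each list in the 3 comparisons; points are genes, filled where edgeR called them, bars are list medians and the dashed line is the median of all genes tested. The MITF targets lie lowest in both comparisons with melanoblasts, with a median of -2.13 in each, and around the median of all genes in aged against adult McSC.

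Profiles over the 9 libraries were compared with those of 8141 protein-coding genes by the root mean square difference in centred log2 CPM, a description without a test in which all genes share the libraries and their scaling. Rasa3 was nearest to Sox10 (0.0813), followed by Brd3 and Iars, beside a median difference from Sox10 of 0.537 over all candidates. For Mitf the nearest were Alx1 (0.112), Phf6 and Ankrd29. For Pax3 they were Mga (0.0794), Zfp638 and Zfp317. Nploc4 (0.0725), Tdp1 and Haus2 were nearest to Tfap2a, and Bhlhe41 (0.134), Zranb2 and Zfp512 to Tfap2b. Jcad (0.132), Itpripl1 and Mpnd were nearest to Snai2, Shroom4 (0.0936), Med4 and Osbpl11 to Zeb2, and Fam53a (0.0532), Acox3 and Pigu to Zeb1. Gabarap (0.0958), Zfp521 and Exd2 were nearest to Foxd3.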

How the data were processed

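Groups and replicate numbers of the 9 mouse libraries were read from the titles. Each library, per the labels' protocols, began as 20 ng of RNA, amplified to cDNA, of which 1000 ng went through 10 PCR cycles. Such amplification can shift the proportions of transcripts, and counts are of reads, not molecules. Per the submitters' processing notes, reads were handled with Trimmomatic 0.36, FastQC 0.11.8, STAR 2.5.2 and SAMtools 1.9, DESeq2 1.22.2 is named too, and the build was mm10. Which program counted reads, and how it treated strand or multi-mapped reads, was not given in the sources used here. Each deposited file holds unnormalized counts for 49671 Ensembl genes. Symbols and coordinates came from the GENCODE M21 annotation, which lacks 259 of the identifiers, holding at most 0.0546% of a library's counts, and promoters from a RefSeq table.

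Here the counts were filtered with edgeR 4.0.16 (R 4.3.3), 31961 genes passing filterByExpr, and scaled by TMM. A group means model over the 9 libraries was tested by robust quasi-likelihood, with Benjamini-Hochberg adjustment over all genes tested in each comparison and a threshold of 0.05. The SE is the log2 fold change divided by the root of F. The code was tested on simulated data. CPM are TMM scaled and log2 CPM have a prior count of 2. On library totals without TMM factors, 3 counts, the most that a count of 0 leaves possible, equal 0.089 to 0.238 CPM, for counting error only. All pairs of libraries within a group differed beyond sampling noise and each counted as a replicate. Ratios used counts plus 0.5 and a 2-sided exact permutation test at 2 times the smaller 1-sided p, with adjustment over 10 ratios in each comparison.

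The members and lists were chosen with earlier results of these data known. Named genes were the members, up to 4 genes per list with the smallest p among those called, or the 2 most abundant where none was, and the 3 genes of at least 10 CPM nearest to each member in profile, with the most abundant marker of each cell type. Some genes that this rule takes are left out of the text. Genes outside it complete a count or are said to be named after their values were seen. Other settings were DESeq2 1.42.0, limma 3.58.1 voom, RLE factors, factors from abundant genes (average log2 CPM above 5), no filter, a filter asking 5 CPM or more in 2 or more libraries, the compared groups alone, a replicate block, each library left out, counts plus 5 in ratios, unscaled levels, and promoters cut to the 250 bases before the start.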

Additional observations from a re-analysis of the deposited data

Results flagged for a closer look

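Among 26 sets of 4 adult values examined (levels, ratios and marker sums), 3 had a library whose gap to the nearest of the others, as a share of the whole range, was above Dixon's 95% critical value for 4 values; chance alone gives such a gap in about 1 set in 20. Zeb1 was at 128.5 CPM in adult replicate 2, beside 109.3 to 110.2 CPM in the other adult libraries. The log2 ratio of Tfap2a to Sox10 was -1.35 in adult replicate 4, beside -0.91 to -0.90 in the others. The log2 ratio of Tfap2a to Tfap2b was -2.25 in the same replicate, beside -1.78 to -1.73. Without adult replicate 4, the difference of Tfap2a to Tfap2b between McSC of both ages and melanoblasts kept its direction. It could not do otherwise, as these groups did not overlap. The causes were not tested.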

How the results depend on the processing

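The ratios of Snai2, Zeb1, Zeb2, Pax3, Foxd3 and Tfap2b to Sox10 kept their direction between McSC of both ages and melanoblasts in the 10 settings run. For these ratios the groups did not overlap, so leaving out a library could not turn the direction. Sox10 and Tfap2a fell in both McSC groups against melanoblasts in all 17 other settings. Scaling moved most other members. With factors from abundant genes 3 members rose and 2 fell in adult McSC against melanoblasts, and 1 rose and 2 fell in aged McSC against melanoblasts. Log2 fold changes that turned there were Pax3 0.15, Snai2 0.81, Zeb1 0.47, Zeb2 0.44 and Foxd3 0.14 in the adult, Mitf 0.38, Pax3 0.51, Tfap2b 0.21, Snai2 0.19, Zeb1 0.90 and Zeb2 0.17 in the aged comparison, and Tfap2a 0.0044 in aged against adult McSC. Calls there were 8 relatives and 11 epithelial genes in adult McSC, 11 epithelial genes in aged McSC, and 1 SOX10 Schwann target in aged against adult McSC. The stricter filter, which leaves 13639 genes to scale on, gave 3 lower members in each comparison with melanoblasts and 1 higher in the aged one, 3 relatives in aged McSC and 1 SOX10 Schwann target in aged against adult McSC; Snai2 0.49, Zeb1 0.17 and Zeb2 0.14 turned in the adult and Pax3 0.069 and Zeb1 0.46 in the aged comparison. limma voom with quality weights gave 8 lower members in adult McSC and, in aged against adult McSC, 3 lower members, 1 relative and 1 regulator; DESeq2 gave 7 relatives in adult McSC. Snai2 in adult McSC against melanoblasts turned to 0.12 without a filter and 0.24 with only the compared groups. In aged against adult McSC, values near 0 turned: Pax3 -0.088, Tfap2b -0.038 and Zeb1 -0.0040 with DESeq2, Pax3 -0.087, Tfap2b -0.038 and Zeb1 -0.0045 with RLE factors, Pax3 -0.061 and Tfap2b -0.018 with voom, and Pax3 -0.055 and Tfap2b -0.0032 without a filter. The number of genes called in aged against adult McSC was 97 by the fit reported, 57 with factors from abundant genes, 296 with only the compared groups, 343 without a filter, 323 with DESeq2, 1520 with voom, and 9 to 302 with 1 library left out. The causes were not tested.

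Replicate numbers were not taken to pair samples. Same-numbered melanoblast and adult libraries had correlations of deviations of -0.0798, 0.202 and -0.0442, and differently numbered ones of -0.236 to 0.285. With so few libraries these values cannot settle whether samples were paired. With a replicate block 9035 genes were called in adult McSC against melanoblasts, in place of 10676, 12740 in aged McSC against melanoblasts, in place of 13005, and 172 in aged against adult McSC, in place of 97. Snai2 in adult McSC against melanoblasts was 0.072 under this block, and in aged against adult McSC Pax3 -0.095 and Zeb1 -0.0020. With the block Mitf and Pax3 passed in aged and Pax3 in adult McSC against melanoblasts, Foxd3 in adult McSC did not (adjusted p = 0.0848), lower members in aged McSC numbered 8 in place of 6, and no member was called in aged against adult McSC.

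With 1 library left out, lower members numbered 3 to 6 in adult and 3 to 7 in aged McSC against melanoblasts, changed relatives 2 to 7 in adult McSC, and changed SOX10 Schwann targets 3 to 7 in aged McSC against melanoblasts and 0 to 3 in aged against adult McSC. Log2 fold changes ran over -0.33 to 0.30 for Snai2 in adult McSC against melanoblasts, and over -0.63 to 0.44 for Pax3 and -0.50 to 0.45 for Tfap2b in aged against adult McSC. Ratios to Sox10 ran over -0.093 to 0.31 for Tfap2a in adult McSC against melanoblasts, and in aged against adult McSC over -0.17 to 1.39 for Pax3, -0.10 to 0.76 for Tfap2a, -0.014 to 1.42 for Tfap2b, -0.55 to 0.061 for Snai2 and -0.48 to 0.57 for Zeb2. For McSC of both ages against melanoblasts they ran over 0.75 to 1.07 for Pax3, 0.41 to 0.82 for Tfap2b, 1.10 to 1.66 for Snai2, 1.19 to 1.48 for Zeb1, 0.97 to 1.18 for Zeb2, 0.60 to 0.93 for Foxd3, and -0.47 to -0.31 for Tfap2a to Tfap2b; without a melanoblast library the exact test cannot go below 0.0714, so these 7 then miss 0.05 by construction.

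On library totals without TMM factors, mean CPM in melanoblasts, adult and aged McSC were Mitf 648, 549 and 854, Sox10 380.1, 259 and 201, Pax3 388, 451 and 557, Tfap2a 173, 127 and 122, Tfap2b 519.8, 472 and 604, Snai2 14.1, 26.1 and 16.6, Zeb1 91.8, 132 and 174, Zeb2 577, 809 and 654, and Foxd3 17.6, 20.6 and 15.4. On that scale Pax3, Snai2, Zeb1 and Zeb2 had higher means in both McSC groups than in melanoblasts, Mitf and Tfap2b in aged McSC, and Foxd3 in adult McSC; no test was run on it. Library totals include mitochondrial ribosomal RNA, whose share was highest in melanoblast replicates 1 and 2, and its part in these levels was not tested. Only 2 aged libraries and pooled animals limit the aged comparisons, and amplified RNA limits what counts say of molecules.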

Other observations

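Among the 36 pairs of members, Pax3 and Tfap2b had the most alike profiles over the 9 libraries, with a root mean square difference in centred log2 CPM of 0.232. Both were higher in aged replicate 2 than in aged replicate 1, at 533 and 560.1 CPM in replicate 2 against 253 and 290.3 CPM in replicate 1. In the same libraries Mitf was at 694 and 500.3 CPM, while Sox10 was at 115 and 161 CPM, so that the 2 aged pools differed in opposite directions for Sox10 and for Mitf, Pax3 and Tfap2b. These values are given as a description, and no test was run on them.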
